A study of Mus musculus with 7 samples.

Results

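HM-1 mouse ovarian cancer cells that carried the hairpin sh1 against Snail were compared with HM-1 cells that carried a non-silencing control hairpin. The comparison holds 5 of the 7 arrays of the series, 2 labelled HM-1_sh1 and 3 labelled HM-1_control, and was chosen by those labels. It covers 65770 transcript clusters, each a gene or transcript as the array counts them, of which 30481 have exactly 1 gene symbol and name 30145 genes. Total RNA from culture was measured on Affymetrix Mouse Transcriptome Arrays, and the deposited values are log2 signals. The hairpins were delivered by GIPZ lentiviral particles as stable transductions, and the other 2 arrays, of cells with the hairpin sh2, served here only to estimate the spread and to set sh1 beside another hairpin. The labels call the arrays of a group biological replicates. Neither they nor the study's methods say that the cells of a hairpin were made more than once, so p-values measure the spread between these cultures and not between separate transductions. A difference between sh1 and control therefore cannot be told apart from another lasting difference between these transduced lines.

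Snail, the product of Snai1, is a zinc-finger transcription factor that binds E-box sequences and represses epithelial genes such as the E-cadherin gene during epithelial-to-mesenchymal transition (EMT). A short hairpin RNA is cut in the cell to a small interfering RNA, which guides the silencing complex to a matching messenger RNA. NF-κB, which recurs among the genes below, is a family of transcription factors that inhibitory IκB proteins hold in the cytoplasm until kinases mark those inhibitors for destruction. Once active, it induces chemokines, adhesion molecules and survival genes together with its own inhibitors, which close the loop.

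The target sequences of both hairpins are shown because they define the reagents compared. Both are labelled as targeting Snai1, a gene of chromosome 2, where their position was not looked up here, and are given as the labels spell them, with their longest shared run of 5 bases in capitals.
sh1: agTTTATtgatattcaata
sh2: tggttaaTTTATatactaa
Each has 19 bases, of which 16 are A or T. At 7 of the 19 positions they carry the same base.

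The array signal of Snai1 itself showed no difference beyond the spread of the arrays. The controls gave log2 signals of 6.61, 6.69 and 6.70, and the arrays labelled sh1 gave 6.80 and 6.55. The sh1 arrays lay on either side of the controls. The difference was 0.01 on the log2 scale, with a 95% confidence interval from -0.21 to 0.23 (limma). The sh1 mean was above 85.5% of the negative control entries of the array, whose 95th percentile was 7.97. The labels thus could not be checked by the targeted gene, and every direction below rests on the arrays as labelled. Snai2, which encodes the relative Slug, had signals of 4.47 to 4.57 in control and 4.54 on both sh1 arrays. Snai3 had 4.42 to 4.5 in control and 4.5 on both.

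The arrays were alike in depth of signal, with a median cluster signal of 4.52 to 4.56 on these 5 arrays. The 2 sh1 arrays differed from each other by a median of 0.05 across clusters, and pairs of control arrays by 0.05 to 0.06. The 5222 negative controls had a median of 4.83, 4.85 and 4.86 on the control arrays and of 4.92 and 4.99 with sh1, so both sh1 arrays were above all controls. The part of this shift in the results below was not tested beyond the alternative fit given with the counts. A group mean under 7.97 is called not well above background here, and where either group is at such a level the size of a fold is uncertain.

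Markers of other cell types were checked on both sides of the comparison. Ptprc, the pan-leukocyte antigen CD45, had a log2 signal of 4.22 on all 5 arrays, and 0 of 18 leukocyte markers passed the test. Before adjustment, 2 of the 18 were lower and 3 higher at a p under 0.05, led by the macrophage marker Cd68 (difference -1.32, adjusted p = 0.0619) and by Ly6c1 (0.71, adjusted p = 0.162). At that threshold, 2254 of all 65770 clusters were lower and 2570 higher. In 5 of 16 alternative fits, 1 leukocyte marker was called lower. The part of these markers in the results below was not tested. Of 11 endothelial and 11 fibroblast markers, 0 passed, and 5 of 16 alternative fits called 1 endothelial marker higher. Over all clusters, 0.0821% passed as lower and 0.0517% as higher, so 0 calls does not set these short lists apart. The mean log2 signal over the leukocyte list was 5.27 to 5.34 in control and 5.24 to 5.30 with sh1, over the endothelial list 4.80 to 4.88 and 4.92 to 4.93, and over the fibroblast list 4.29 to 4.31 and 4.30 to 4.31. Vim, which encodes the intermediate filament protein vimentin, was at 17.86 to 17.89 in control and 17.89 in sh1. The epithelial markers Cdh1 and Epcam, the genes of E-cadherin and of a surface adhesion molecule, were at 3.81 to 3.86 and 4.17 to 4.18, under the median of the negative controls of 4.94. Krt18, a keratin of simple epithelia, was at 16.59 to 16.66 in control and 16.87 to 16.90 with sh1, a difference of 0.26 (adjusted p = 0.0567). All 17 ovarian and mesothelial markers were under 7.97 in both groups, so the labelled tissue was not visible in them. Of 10 housekeeping genes, 0 passed, and their log2 fold changes lay between -0.04 and 0.04.

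The sh1 arrays differed from control in few clusters, led by chemokine and NF-κB genes that were lower and by Cdh9 and Cavin2, which were higher. At an adjusted p under 0.05 (limma with Benjamini-Hochberg adjustment over all clusters, 7 arrays in 3 groups), 54 clusters were lower, 0.0821% of those tested, and 34 were higher, 0.0517%. With a change of more than 2-fold as well, 32 were lower (0.0487%) and 10 higher (0.0152%). Calls without the fold minimum were more frequent at bright signals. By rank of control mean, 0 clusters were lower in the lowest 25% and from 25 to 50%. From 75 to 90%, 0.304% were lower and 0.122% higher, and in the highest 10%, 0.319% and 0.213%. Of the 32, 26 have 1 symbol and 6 have none, and of the 10, 9 have 1 symbol and 1 has none. All 88 clusters past the test had groups that did not overlap. Among all clusters, the sh1 arrays were both below every control array in 7.53% and both above in 9.28%. Before adjustment, 2254 clusters were lower and 2570 higher at a p under 0.05. The median change of all clusters was 0.00. For 23 of the 32 lower and 4 of the 10 higher clusters, the dimmer group was not well above background, and for 7 and 2 of them both groups were not.

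These counts depended on the control arrays. When control replicate 1, 2 or 3 was left out, the clusters lower by more than 2-fold were 3, 1 and 4 in that order, and those higher were 0, 0 and 2. The fold changes moved little, as for Ccl2, whose log2 fold change was -6.17 to -5.97 over the 7 fits that each leave out 1 array. A fit with the negative control median of each array as a covariate called 0 clusters in either direction. The groups do not overlap in that median, with 95.1% of its variance between groups, so the covariate and the group can hardly be told apart and the loss of calls says little. The log2 fold changes of the 46 named genes past the test were 0.84 to 1.22 times as large in that fit.

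**Figure D1:**
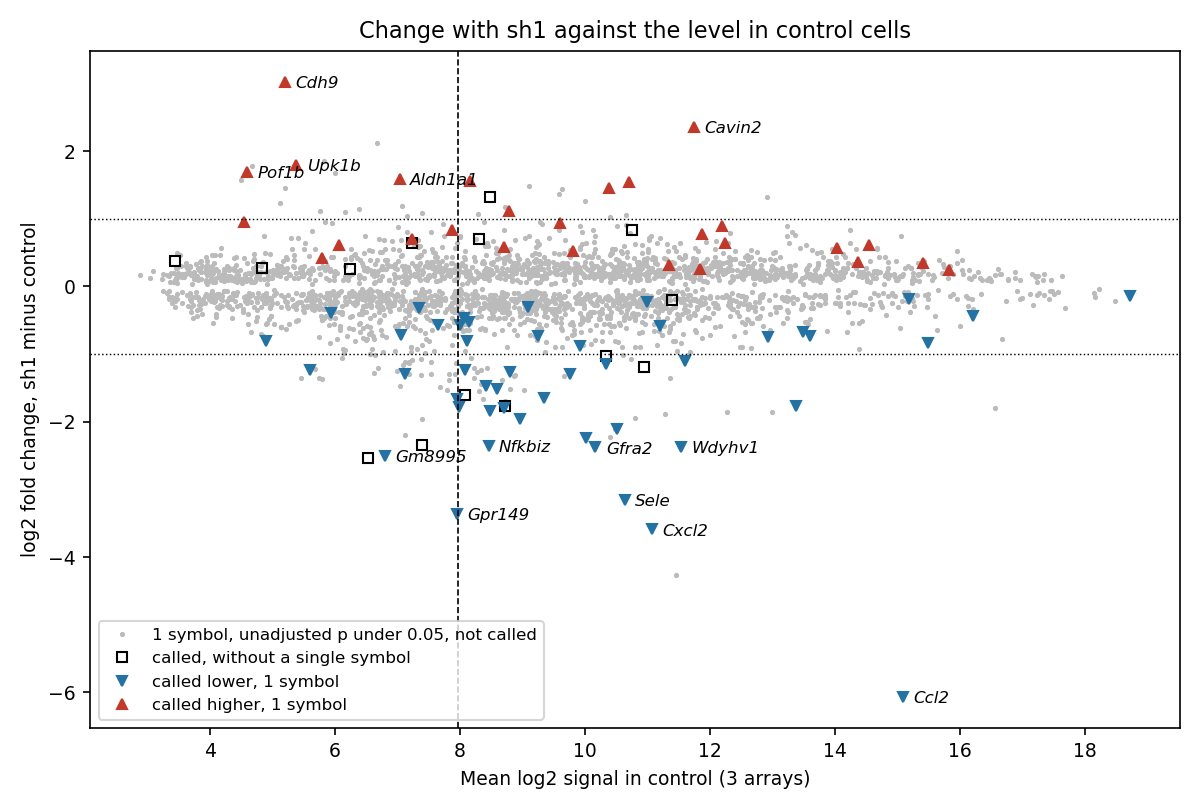
Log2 fold change of sh1 against control (vertical axis) by the mean log2 signal of the 3 control arrays (horizontal axis). Grey points are single-symbol clusters at an unadjusted p under 0.05, triangles are single-symbol clusters past the adjusted test and squares are clusters past it without a single symbol. Dotted lines mark 2-fold and the dashed line the 95th percentile of the negative controls, 7.97. Ccl2 stands apart at the bottom with -6.07, and Cdh9 is highest with 3.03.

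Chemokines, the secreted proteins that attract leukocytes, held the largest falls. Ccl2, which draws in monocytes through the receptor CCR2, was at 15.08, 15.26 and 14.91 on the log2 scale in control and at 8.92 and 9.12 with sh1. This is a log2 fold change of -6.07 (standard error, SE, 0.13 and adjusted p = 0.00468) or 67.1-fold, with both groups above background. Ccl2 passed without every array left out except control replicate 1 or 2, where the adjusted p was 0.071 and 0.055. Of 19 CC chemokines measured, Ccl2 was the only member past the test, against 0.0821% of all clusters lower, and the median of the list was -0.01. Before adjustment, 3 of the 19 were lower and 1 higher at a p under 0.05, against 2254 and 2570 of all 65770 clusters. In the fit of clusters with a mean above the 40th percentile, 2 of the 11 members kept were called lower. In its analysis of both hairpins, the study also tabulated Ccl7 and Ccl20 as lower. For 18 of the 19, both groups were not well above background.

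Cxcl2, which attracts neutrophils through CXCR2, had signals of 11.06, 11.47 and 10.71 in control and 7.38 and 7.59 with sh1. It fell by 3.59 on the log2 scale (SE 0.24, adjusted p = 0.0387), to a mean that was not well above background. Leaving out any single array ended the call (adjusted p = 0.057 to 0.17). Of the 6 measured ligands of CXCR2, Cxcl2 passed, against 0.0821% of all clusters lower, and the other 5 did not. Of the 9 alternative fits that do not leave out a single array, Cxcl2 passed in 6, Cxcl5 and Cxcl3 in 5 each, and Ppbp, Cxcl1 and Cxcl15 in 0. The median log2 fold change over the 6 was -1.5. Cxcl5 had the larger difference of -4.26, from 11.30, 12.01 and 11.06 to 7.20 on both sh1 arrays, and missed the threshold (adjusted p = 0.0514). Control replicate 2 was the highest of the controls for both genes. Cxcl3 had signals of 16.48 to 16.68 in control and 14.68 and 14.85 with sh1, a difference of -1.79 (adjusted p = 0.0730). Ppbp, the precursor gene of CXCL7, differed by -1.20 (adjusted p = 0.155) and Cxcl1 by -0.15 (adjusted p = 0.755), the latter at a signal of at most 4.47. The lung chemokine gene Cxcl15 lay the other way, at 5.92 to 6.84 in control and 7.40 and 7.66 with sh1 (difference 1.14, adjusted p = 0.603).

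Cxcl16, whose product is made as a membrane protein and attracts T cells that carry CXCR6, had the tightest change of the chemokines past the test. Its signals were 8.48, 8.39 and 8.39 in control and 6.94 and 6.96 with sh1, a log2 fold change of -1.47 (SE 0.03, adjusted p = 0.00549). It passed without every array except control replicate 2 (adjusted p = 0.071). Of 10 chemokines of the CXC and CX3C families outside the CXCR2 ligands, it alone passed, against 0.0821% of all clusters lower. The median of the 10 was -0.06. Before adjustment, 3 of the 10 were lower and 1 higher at a p under 0.05, against 2254 and 2570 of all 65770 clusters.

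NF-κB feedback inhibitors, here a list of genes that restrain NF-κB and of which several are induced by it, were among those that fell. Of 14 such feedback inhibitors, 3 fell, against 0.0821% of all clusters, 0 rose and 11 missed the threshold. Their median log2 fold change was -1.11 against 0.00 over all clusters. In 12 of the 14, both sh1 arrays lay below every control array, against 7.53% of all clusters. This list was drawn up with earlier results of these data known. Nfkbiz, an atypical IκB protein of the nucleus that can also activate cytokine genes, had signals of 8.47, 8.52 and 8.40 in control and 5.96 and 6.24 with sh1. Its log2 fold change was -2.36 (SE 0.11, adjusted p = 0.0295). Zc3h12a, the RNase regnase-1 that cuts cytokine messenger RNAs, fell from 8.14, 8.0 and 7.83 to 6.13 and 6.29, a log2 fold change of -1.78 (adjusted p = 0.0410). Ier3, a stress-induced gene that affects cell survival, was brighter, with 13.41, 13.34 and 13.38 in control and 11.57 and 11.65 with sh1. It fell by 1.77 (SE 0.10, adjusted p = 0.0327), and it is the only gene of the 3 with both groups above background. None of the 3 passed without control replicate 1, 2 or 3.

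The members that did not pass included the classical inhibitors. Nfkbia, which encodes IκBα, had 13.09, 13.03 and 12.86 in control and 11.00 and 11.29 with sh1, a difference of -1.85 (adjusted p = 0.0784). Tnfaip3, the ubiquitin-editing enzyme A20, differed by -1.44 (adjusted p = 0.111). Its partner gene Tnip1 differed by -1.33 (adjusted p = 0.0605), and Tnip3 of the same family by -1.28 (adjusted p = 0.127). The groups did not overlap in any of these 4 genes. Nfkbie, which encodes IκBε, differed by -0.95, Nfkbid by -0.73 (adjusted p = 0.0516) and Bcl3, another nuclear IκB relative, by -0.59. The deubiquitinase genes Cyld and Otud7b differed by -0.18 and -0.12, and Nfkbib and Tnip2 by -0.01 each.

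Of 15 measured subunits and kinases of the pathway, Ikbke fell, against 0.0821% of all clusters, 0 rose and 14 did not pass. Their median was -0.04. Ikbke encodes IKKε, a kinase related to those that mark IκB, and it is itself induced by NF-κB. Its signals were 10.07, 10.15 and 9.84 in control and 7.75 and 7.80 with sh1, a log2 fold change of -2.24 (SE 0.10, adjusted p = 0.0295), to a mean that was not well above background. Of the fits that leave out 1 array, it passed only without sh1 replicate 2 (adjusted p up to 0.16 in the others). The subunit gene Nfkb2 differed by -0.46 (adjusted p = 0.113) and Relb by -0.36 (adjusted p = 0.129), each with both sh1 arrays below the controls. Rela, which encodes p65, had 14.35, 14.35 and 14.37 in control and 14.31 and 14.34 with sh1, a difference of -0.03 with an interval from -0.09 to 0.02. Rel differed by -0.19 and the adaptor gene Traf2 by -0.20. The other 9 measured members, Ikbkb, Ikbkg, Tbk1, Map3k14, Map3k7, Tab1, Tab2, Traf6 and Ripk1, differed by between -0.14 and 0.07.

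Adhesion and survival genes that NF-κB is known to induce included 3 that fell of 15 measured, against 0.0821% of all clusters, with 0 that rose and a median of -0.20. Sele, the leukocyte adhesion molecule E-selectin of activated endothelium, had 10.68, 10.80 and 10.44 in control and 7.40 and 7.55 with sh1. Its log2 fold change was -3.16 (SE 0.21, adjusted p = 0.0385). Of 11 other endothelial markers, 10 had both groups under background, among them Pecam1 at 4.68 to 4.77 and Kdr at 4.17 on every array, where a difference could be missed. Flt1, a receptor of vascular endothelial growth factor, was the exception, at 9.02 to 9.26 in control and 8.88 and 8.89 with sh1 (difference -0.28, adjusted p = 0.448). The part of endothelial markers in the fall of Sele was not tested. Cdh5, the endothelial cadherin, lay the other way, at 4.96 to 5.29 in control and 6.34 and 6.36 with sh1 (difference 1.23, adjusted p = 0.0557), under background in both. Cdh5 passed in 5 of the 9 alternative fits that do not leave out a single array. Cd82, a tetraspanin, fell by 1.10 (adjusted p = 0.0408) and Birc3, the inhibitor of apoptosis cIAP2, by 0.57 (adjusted p = 0.0416). At a p under 0.05 before adjustment, 2254 of all 65770 clusters were lower and 2570 higher. Of 18 colony-stimulating factors and cytokines, 8 were lower and 2 higher at that threshold. Their differences ran from -1.36 to 0.44, with a median of -0.16, and 1 gene passed, against 0.0821% of all clusters lower. This was Csf3, which encodes the granulocyte growth factor G-CSF and fell by 0.81 (adjusted p = 0.0368). Its signal was 4.93 at most, with both group means under the negative control median of 4.94. Each of these 4 genes lost its call in every fit that left out 1 array (adjusted p up to 0.17).

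**Figure D2:**
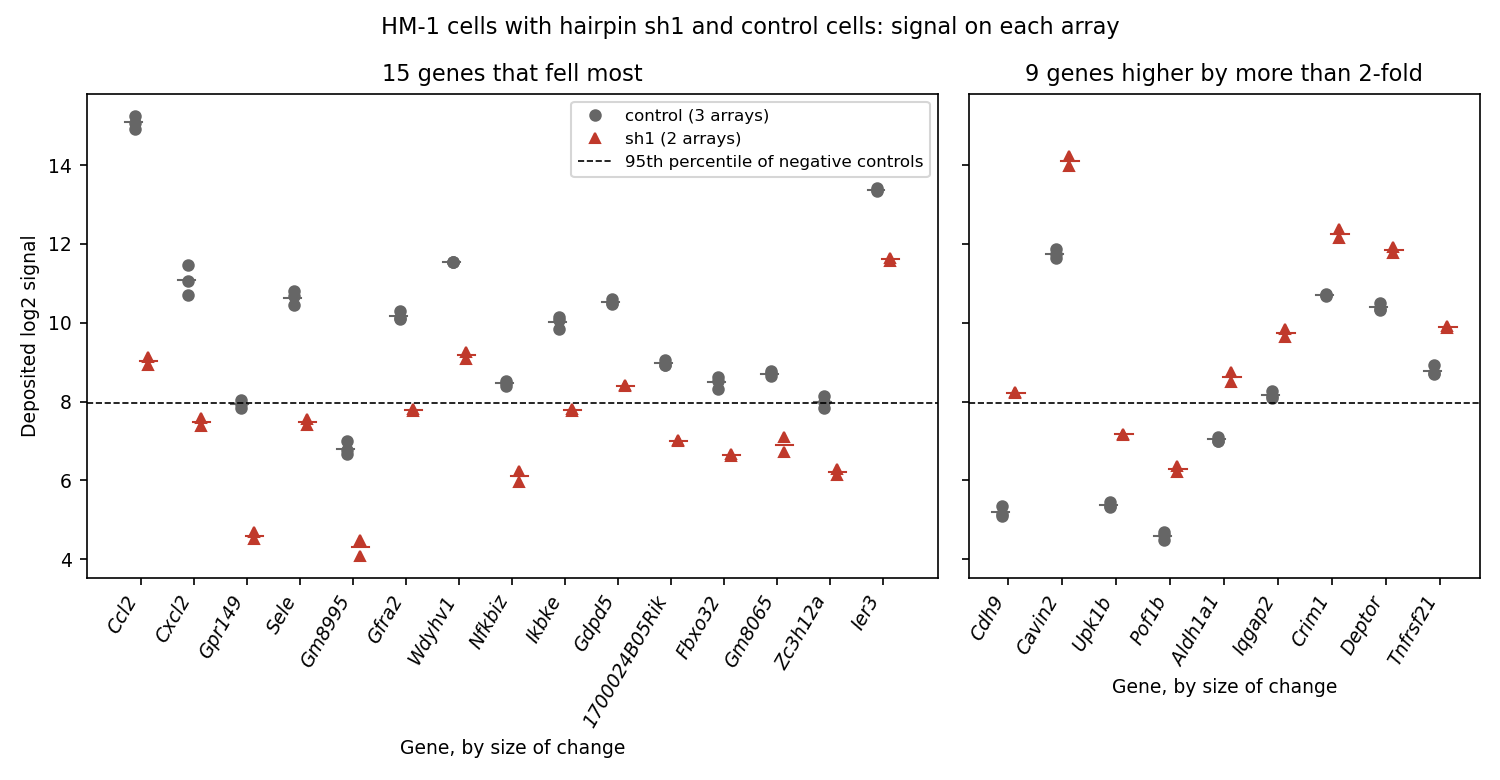
Deposited log2 signal (vertical axis) of the 15 genes that fell most and the 9 genes higher by more than 2-fold, among those past the adjusted test. Grey circles are the 3 control arrays, red triangles the 2 sh1 arrays and short lines the group means. The groups do not overlap in any of these genes, and for Cxcl2, Sele, Gfra2 and Ikbke the sh1 arrays lie between 7.38 and 7.80, under the dashed line, the 95th percentile of the negative controls at 7.97.

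Promoter sequences were searched for the 26 single-symbol genes that fell by more than 2-fold, because both NF-κB and Snail act through short DNA motifs. RefSeq promoters (GRCm38.p6, 250 bases before to 50 after each start) matched 11 of the 26 genes by symbol, with 15 starts. The 10-base NF-κB consensus, on either strand, occurred in 2 of the 11 genes (18.2%), Cxcl2 and Ier3, against 5.14% of the 27025 genes in the table. The E-box CACCTG, on either strand, occurred in 2 of the 11 genes (18.2%), Zc3h12a and Cd82, against 22.6% of all genes. Of the genes higher by more than 2-fold, 7 of 9 matched, and 0 of the 7 had the NF-κB consensus and 2, Aldh1a1 and Pof1b, the E-box. These are matches of letters, not binding sites. Both promoters with an NF-κB match are printed 5′ to 3′ on the strand of the gene, with the match in capitals. That of Cxcl2 (GRCm38.p6, chr5:90903649-90903948, plus strand) holds 2 matches, on opposite strands, that overlap from 97 bases before the start. That of Ier3 (GRCm38.p6, chr17:35821463-35821762, plus strand) holds 1, on the reverse strand, from 92 bases before the start.
Cxcl2: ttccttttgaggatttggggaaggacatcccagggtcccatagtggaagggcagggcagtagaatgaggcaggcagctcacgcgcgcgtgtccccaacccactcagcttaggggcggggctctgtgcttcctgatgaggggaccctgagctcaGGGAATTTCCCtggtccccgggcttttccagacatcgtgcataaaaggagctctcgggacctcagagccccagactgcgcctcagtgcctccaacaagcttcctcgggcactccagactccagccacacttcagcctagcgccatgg
Ier3: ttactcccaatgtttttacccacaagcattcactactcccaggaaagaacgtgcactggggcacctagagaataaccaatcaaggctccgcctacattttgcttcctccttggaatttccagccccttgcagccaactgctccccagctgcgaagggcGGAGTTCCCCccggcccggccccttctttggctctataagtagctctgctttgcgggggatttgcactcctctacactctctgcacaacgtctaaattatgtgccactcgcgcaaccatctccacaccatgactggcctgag
Both genes fell on the sh1 arrays, by 3.59 and 1.77 on the log2 scale.

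Other genes with a large fall lay outside these lists. Gpr149, an orphan G protein-coupled receptor, had 7.95, 8.05 and 7.85 in control and 4.51 and 4.68 with sh1, a log2 fold change of -3.36 (SE 0.12, adjusted p = 0.0188). Its control mean was at the edge of background and its sh1 mean under the negative control median. Gfra2, a co-receptor for the growth factor neurturin, had 10.30, 10.10 and 10.11 in control and 7.77 and 7.80 with sh1 (log2 fold change -2.38, adjusted p = 0.0295). Wdyhv1, an amidase that acts on N-terminal glutamine in the N-degron route of protein decay, had 11.53, 11.55 and 11.55 in control and 9.09 and 9.25 with sh1 (log2 fold change -2.37, adjusted p = 0.0295). Its control arrays agreed most closely among the 15 leading falls, and both its means were above background. Gdpd5, a membrane glycerophosphodiesterase, fell from 10.60, 10.49 and 10.47 to 8.42 and 8.39 (log2 fold change -2.11, adjusted p = 0.0327). Fbxo32, the ubiquitin ligase subunit atrogin-1 of muscle wasting, fell by 1.84 (adjusted p = 0.0327). The predicted gene Gm8995 fell by 2.50 (adjusted p = 0.0416) at control signals of 6.66 to 6.99. Over fits that each leave out 1 array, Gpr149 and Wdyhv1 passed in 4 of 7, Gfra2 in 3 and Gdpd5 in 2, and in each case not without control replicate 1, 2 or 3.

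Among transcription factors of EMT, Klf4 was the only one of 15 measured to pass, against 0.0821% of all clusters lower. The median of the list was -0.02. Klf4, a zinc-finger factor of epithelial differentiation and pluripotency, had 8.90, 8.72 and 8.76 in control and 7.51 and 7.53 with sh1, a log2 fold change of -1.27 (SE 0.08, adjusted p = 0.0379), and it did not pass without any 1 array. Epithelial markers (23 measured) and mesenchymal markers (18 measured) had 0 genes past the test, against 0.0821% of all clusters lower and 0.0517% higher. Before adjustment 0 lower and 3 higher, and 1 lower and 1 higher, had a p under 0.05, against 2254 lower and 2570 higher of all 65770 clusters. The 95% intervals of Cdh1, Epcam and Krt7 lay within -0.10 and 0.07, and those of Vim, Cdh2 and Cdh11 within -0.09 and 0.07. Except for Vim, these genes had signals of at most 5.72, where a change could be missed. Other members differed more. Over each whole list, differences ran from -0.56 to 0.26 for epithelial markers and from -0.33 to 0.89 for mesenchymal markers. Of 16 alternative fits, 3 called 1 epithelial marker lower and 3 called 1 higher, and 0 called a mesenchymal marker.

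A family of predicted genes on chromosome 14 lay below control throughout. Of 16 measured genes of the DUF622 family, 5 fell, against 0.0821% of all clusters, 0 rose and 11 did not pass, with a median of -1.37. In all 16, both sh1 arrays lay below every control array, against 7.53% of all clusters. The list was drawn up with earlier results of these data known and holds genes that the study tabulated as lower in these same samples, so its direction is not independent evidence. Members of a family can share probes, which was not tested, so the 16 values are not separate observations. The role of these genes is not known from the annotation used. Signals ran from 6.93 to 9.06 in control and from 5.91 to 7.36 with sh1. 1700024B05Rik, the clearest, had 8.92, 8.93 and 9.06 in control and 7.01 and 7.02 with sh1 (log2 fold change -1.96, SE 0.05, adjusted p = 0.00610). It passed without every array except control replicate 1 or 2 (adjusted p = 0.071 and 0.085). Gm8065 fell by 1.80, Gm7995 by 1.66, 1700049E17Rik1 by 1.52 and Gm8032 by 1.24, each with an adjusted p between 0.0295 and 0.0484. In all, 7 of the 32 clusters lower by more than 2-fold carry chromosome 14 in their identifier, which 4.30% of all clusters do. Of the 7, 5 are these genes, 1 has no symbol and 1 is Gfra2, which is not of the family. The cluster without a symbol here fell by 1.77 (adjusted p = 0.0323), and the study tabulated it as Gm10378, also described there by the DUF622 domain.

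The genes that rose were led by Cdh9, a cadherin of the type II class, which mediates adhesion between cells. Its signals were 5.36, 5.10 and 5.15 in control and 8.23 and 8.24 with sh1, a log2 fold change of 3.03 (SE 0.19, adjusted p = 0.0379). The control signals lay near the negative control median and the sh1 signals above background. Cavin2, a coat protein of caveolae, the small pits of the cell membrane, had 11.87, 11.64 and 11.74 in control and 13.99 and 14.23 with sh1. Its log2 fold change was 2.36 (SE 0.13, adjusted p = 0.0323). Cavin2 was the only one of 9 caveolae genes past the test, against 0.0517% of all clusters higher. Upk1b, a uroplakin of the urothelium that mesothelium also makes, rose from 5.32 to 5.45 in control to 7.16 and 7.19 (log2 fold change 1.80, adjusted p = 0.0346). Pof1b, an actin-binding protein of epithelia, rose by 1.69 (adjusted p = 0.0416). Both stayed under background. Aldh1a1, which oxidises retinaldehyde to retinoic acid, had 7.0, 7.10 and 7.01 in control and 8.49 and 8.76 with sh1 (log2 fold change 1.59, adjusted p = 0.0323). Its relative Aldh3a1, which acts on aromatic and medium-chain aldehydes, went the other way, from 9.26, 9.54 and 9.25 to 7.67 and 7.74 (log2 fold change -1.65, adjusted p = 0.0368). These were the only 2 of 20 aldehyde dehydrogenase and retinoid genes past the test, against 0.0517% of all clusters higher and 0.0821% lower.

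A further group of brighter genes rose by 2-fold to 3-fold. Crim1, a membrane protein that binds bone morphogenetic proteins, had 10.73, 10.71 and 10.69 in control and 12.37 and 12.14 with sh1 (log2 fold change 1.55, adjusted p = 0.0309). Deptor, an inhibitor that binds mTOR, had 10.36, 10.32 and 10.50 in control and 11.78 and 11.93 with sh1 (log2 fold change 1.46, adjusted p = 0.0323). Deptor was the only one of 13 mTOR pathway genes to pass, against 0.0517% of all clusters higher. Iqgap2, a scaffold of the actin cytoskeleton, rose by 1.56 (adjusted p = 0.0385) and Tnfrsf21, death receptor 6, by 1.11 (adjusted p = 0.0419). Tnfrsf21 was the only one of 21 TNF receptor family genes past the test, against 0.0517% of all clusters higher. None of the named genes that rose passed without control replicate 1 or 2, and only Tnfrsf21 passed without control replicate 3 (adjusted p = 0.046).

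Below 2-fold, 18 single-symbol genes rose, by 0.25 to 0.95, and 21 fell, by between -0.88 and -0.14. Dagla, the lipase that makes the endocannabinoid 2-arachidonoylglycerol, rose by 0.94 (adjusted p = 0.0323), and 9930111J21Rik2 by 0.95 at signals of 5.56 at most. Gclc, the catalytic subunit of the enzyme that limits glutathione synthesis, had 12.17, 12.21 and 12.23 in control and 13.04 and 13.16 with sh1 (log2 fold change 0.89, adjusted p = 0.0295). The homeobox gene Meis2 rose by 0.84, the kinase gene Pim3 by 0.77 and the latrophilin gene Adgrl3 by 0.70. Casp6, a caspase of apoptosis, fell by 0.58 (adjusted p = 0.0351). Of 17 BCL-2 family and caspase genes it alone passed, against 0.0821% of all clusters lower. Named after their values were seen, the small GTPase gene Rras fell by 0.75, the kinase gene Frk by 0.88 and the cytokine receptor gene Il6st by 0.23, and the stress sensor gene Atf6 rose by 0.57.

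Genes of cholesterol and fatty acid synthesis lay above control by less than 2-fold, most of them without passing the test. The sterol pathway builds cholesterol from acetyl-CoA under the control of SREBP factors, which also drive fatty acid synthesis. Of 13 measured genes, 1 rose, against 0.0517% of all clusters, 0 fell and 12 did not pass. The median log2 fold change was 0.54 against 0.00 over all clusters. In 12 of the 13, both sh1 arrays lay above every control array, against 9.28% of all clusters. At an unadjusted p under 0.05, 11 of the 13 were higher, against 2570 of all 65770 clusters. These genes share regulators and were read from the same arrays, so the 13 values are not separate observations. The list was drawn up with earlier results of these data known. Acaca, acetyl-CoA carboxylase, the entry enzyme of fatty acid synthesis, had 9.80, 9.82 and 9.80 in control and 10.32 and 10.35 with sh1 (log2 fold change 0.52, SE 0.03, adjusted p = 0.0379). It did not pass without any 1 of the control and sh1 arrays (adjusted p = 0.057 to 0.17). Among those that did not pass, Lss, lanosterol synthase, had the largest difference, 0.93, from 7.80, 7.73 and 7.65 in control to 8.68 and 8.64 with sh1 (adjusted p = 0.145). Cyp51, the next enzyme of the pathway, differed by 0.83, Fdps, which makes farnesyl diphosphate, by 0.83, and Hmgcs1, HMG-CoA synthase, by 0.67. Scd1, the desaturase of stearic acid, differed by 0.75 at signals of up to 15.18 in control and 15.85 and 15.79 with sh1. Sqle, squalene epoxidase, differed by 0.52 (adjusted p = 0.0793) and Fasn, fatty acid synthase, by 0.34. Srebf2, which encodes SREBP2 itself, differed by 0.03, and its groups overlapped. With sh2, against the same 3 controls, the differences ran from 0.11 to 0.78 with a median of 0.61, and 2 passed. The median with sh1 was 0.51 with quantile normalization and 0.78 with the negative control covariate, where 0 members passed.

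**Figure D3:**
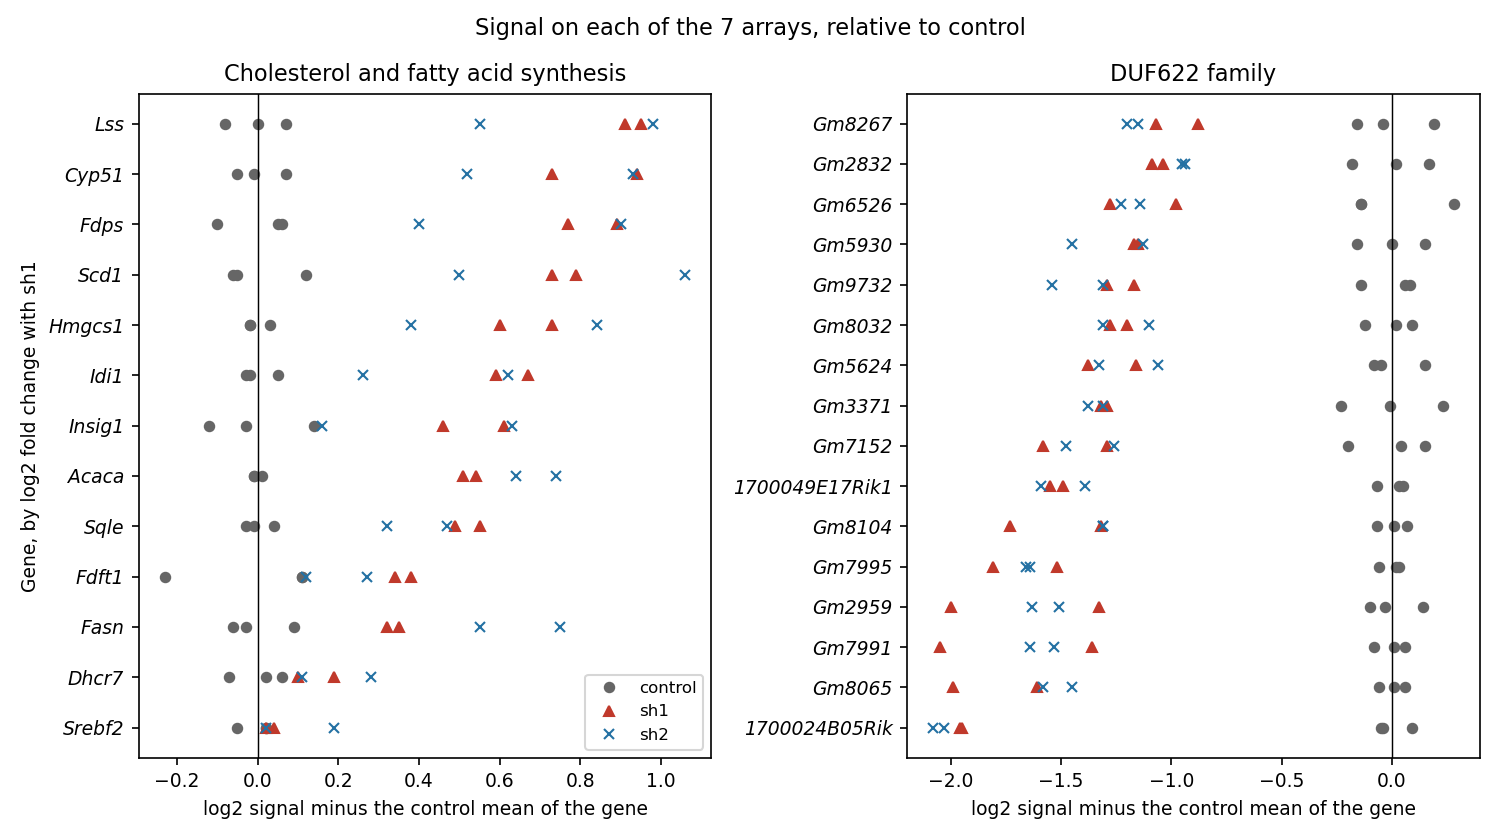
Log2 signal minus the control mean of each gene (horizontal axis) on all 7 arrays, for 13 genes of cholesterol and fatty acid synthesis (left) and 16 genes of the DUF622 family (right), ordered by the change with sh1. Grey circles are control, red triangles sh1 and blue crosses sh2. The left panel has sh1 to the right of all controls for 12 of 13 genes, all but Srebf2, and the right panel has sh1 to the left of all controls for 16 of 16.

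Other programs had few or no genes past the test. Over all clusters, 0.0821% passed as lower and 0.0517% as higher, so 0 calls does not set such a short list apart. At an unadjusted p under 0.05, 2254 of the 65770 clusters were lower and 2570 higher. Of 20 cell cycle genes, 0 passed (1 lower and 4 higher at p under 0.05 before adjustment), and the proliferation gene Mki67 had 14.67 to 14.77 in control and 14.83 and 14.87 with sh1. Its difference was 0.14, with an interval from -0.03 to 0.31. The replication enzyme gene Top2a differed by -0.22 (adjusted p = 0.156) and the cyclin gene Ccnb2 by -0.01. Of 14 p53 targets, 0 passed (4 lower and 0 higher at p under 0.05), with the cell cycle inhibitor gene Cdkn1a at -0.29 (adjusted p = 0.0533) and Mdm2, the ligase gene that restrains p53, at -0.25. Of 23 interferon-stimulated genes, 0 passed (3 lower and 2 higher at p under 0.05), and Isg15, Ifit1 and Ifit2 had intervals within -0.52 and 0.61 at signals of at most 6.05. Of 14 genes of MHC class I presentation, 0 passed (2 lower and 0 higher at p under 0.05), and H2-K1, H2-D1 and B2m, which build the class I molecule, had intervals within -0.09 and 0.06 at signals of 10.17 to 17.69. Other members differed more. Differences ran from -0.22 to 0.43 for cell cycle genes, -0.52 to 0.31 for p53 targets, -0.73 to 1.10 for interferon-stimulated genes and -0.72 to 0.15 for MHC class I. Of 16 alternative fits, 4 called 1 p53 target lower, and 1 each called 1 interferon-stimulated and 1 MHC class I gene lower.

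The same held for several wider lists. The medians of the lists of this and the preceding paragraph lay between -0.03 and 0.04. Of 26 immediate early and MAPK feedback genes, 0 passed, and before adjustment 4 were lower and 4 higher at a p under 0.05. Fos, Fosb and Fosl1, which build the transcription factor AP-1, had intervals within -0.20 and 0.41. Over the 26 genes, differences ran from -1.06 to 1.06. Of 16 alternative fits, 5 called at most 2 of them lower and 5 called 1 higher. Of 18 genes of Toll-like and NOD receptor signalling, 14 of complement and the acute phase, 19 immune checkpoint and suppressive genes, 24 integrins and 20 metalloproteinases and inhibitors, 0 passed in each list. The first 2 lists hold 21 and 19 genes, and those without a single-symbol cluster are not counted. The study tabulated 2 clusters that have no symbol here as the complement gene C3 and the kinase gene Ripk2. These clusters fell by 2.34 (adjusted p = 0.0419) and 1.03 (adjusted p = 0.0472). Several of these lists leaned to 1 side before adjustment. Among all 65770 clusters, 2254 were lower and 2570 higher at a p under 0.05 in the same limma fit. At a p under 0.05, 5 complement and acute phase genes were lower and 0 higher, 6 and 0 of the checkpoint list, 6 and 0 of the metalloproteinases, 4 and 1 of the integrins and 3 and 1 of Toll-like and NOD receptor signalling. Of 16 alternative fits, 9 called 1 or 2 complement and acute phase genes lower, 5 called 2 of the checkpoint list, 4 called 1 metalloproteinase gene and 2 called 1 or 2 integrins, and none called a member of these lists higher. The largest differences among the measured genes of the first 3 of these lists were in Cp, Havcr2 and Mmp9, named after their values were seen. They encode the copper carrier ceruloplasmin, a checkpoint receptor and a gelatinase. Cp had 10.32, 10.65 and 10.22 in control and 8.16 and 8.18 with sh1 (difference -2.23, adjusted p = 0.0514). Havcr2, which encodes TIM-3, had 10.81, 10.92 and 10.71 in control and 8.77 and 8.97 with sh1 (difference -1.94, adjusted p = 0.0683). Mmp9 differed by -1.36 (adjusted p = 0.156) with both groups under background. The groups did not overlap in any of the 3 genes. The complement gene C1rb was at -0.40 (adjusted p = 0.0542), and the pattern receptor genes Tlr1, Tlr2 and Tlr3 had intervals within -0.81 and 0.31 at signals of at most 6.01. Cd274, Pdcd1lg2 and Cd276, which encode ligands that restrain T cells, had intervals within -0.10 and 0.23. The integrin gene Itga2, the alpha subunit of a collagen receptor, had a difference of -1.89 (adjusted p = 0.0998), from 11.05 to 11.46 in control to 9.5 and 9.30. Of 19 Wnt receptors and targets, 14 genes of the unfolded protein and integrated stress response, 17 of glycolysis and hypoxia and 10 of the small RNA machinery, 0 passed in each list. At a p under 0.05, 1 was lower and 4 higher, 1 and 1, 2 and 2, and 0 and 2, in that order. Differences ran from -0.42 to 1.18, -0.59 to 0.28, -0.80 to 0.75 and -0.03 to 0.36, in the same order. Of 16 alternative fits, 5 called 1 Wnt gene higher. Dicer1, Drosha and Xpo5, the genes through which hairpins and microRNAs are processed and exported, had intervals within -0.10 and 0.47. The chaperone genes Hspa5 and Hsp90b1 and the stress factor gene Ddit3 had intervals within -0.05 and 0.18, and the glucose transporter gene Slc2a1 and the hexokinase genes Hk1 and Hk2 within -0.55 and 0.11. Of 17 ovarian and mesothelial markers, Upk1b was the only gene to pass, against 0.0517% of all clusters higher.

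**Figure D4:**
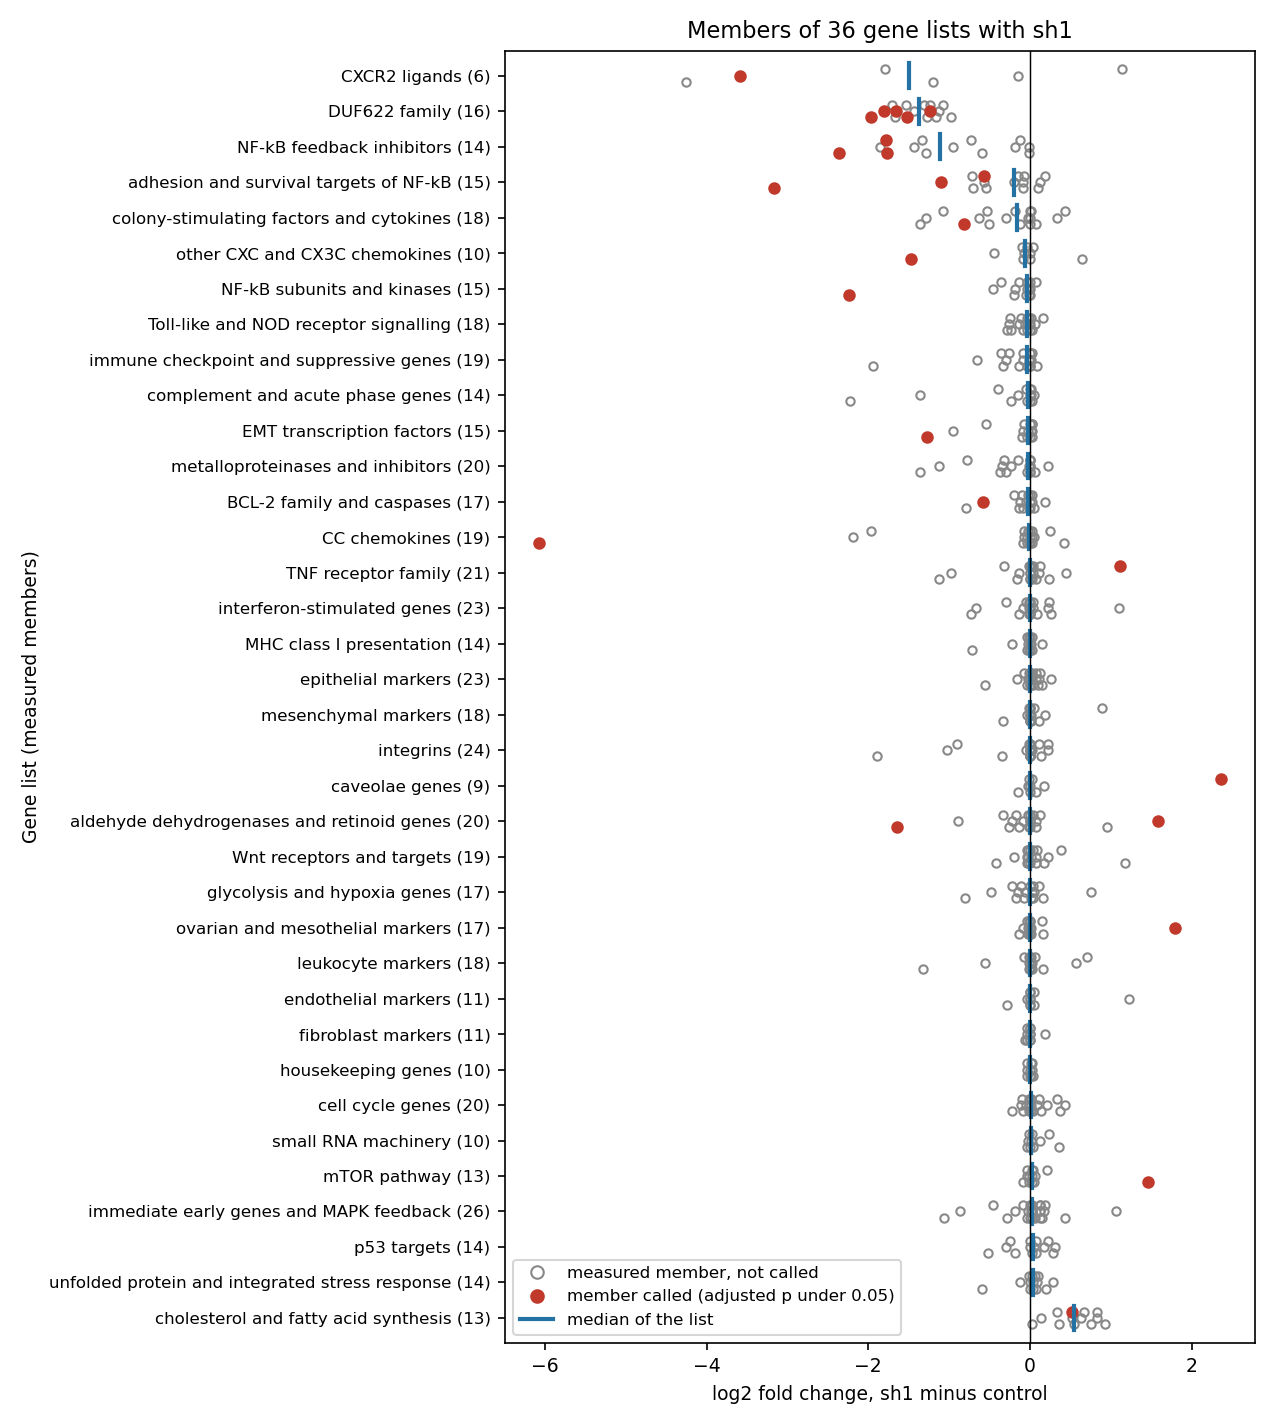
Log2 fold change of sh1 against control (horizontal axis) of each measured member of 36 gene lists, ordered by the median (blue bar). Filled red points passed the adjusted test and open points did not. The medians of the CXCR2 ligands (-1.5), the DUF622 family (-1.37) and the feedback inhibitors lie farthest below 0, and that of cholesterol and fatty acid synthesis (0.54) farthest above. Housekeeping genes all lie within 0.04 of 0.

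Whether a change belongs to sh1 alone can be asked only against the second hairpin, which shares the same 3 controls. Their changes from control are therefore given side by side and not as a count of shared clusters. Ccl2 had a log2 fold change of -6.04 with sh2 beside -6.07, Cxcl2 -3.76 beside -3.59, Nfkbiz -2.25 beside -2.36, Cdh9 2.87 beside 3.03 and Cavin2 2.49 beside 2.36. In the direct contrast of sh2 with sh1, 0 clusters passed in limma, where the lowest adjusted p was 0.087. Before adjustment, 1487 were lower and 2463 higher at a p under 0.05. No change is therefore shown to be particular to sh1. The direct count was 0 also without any 1 control, and 118 to 2078 without 1 sh1 or sh2 array, when 1 of the hairpins has a single array. Of the 2078, 1315 had a residual standard deviation under 0.01, as equal deposited values give.

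The single-symbol genes past the test with sh1 whose sh2 values lay farthest from it by p were small in size. The predicted gene Gm10925 had 18.72, 18.73 and 18.73 in control, 18.59 on both sh1 arrays and a difference of sh2 from sh1 of 0.16 (adjusted p = 0.213). Efnb1, the guidance ligand ephrin-B1, rose by 0.42 with sh1 and by 0.21 with sh2 at signals of 6.21 at most. Plet1, a membrane-anchored protein of placenta and progenitor cells, fell by 0.44 with sh1 and by 0.71 with sh2. Hsd17b7, an enzyme of sterol and estradiol synthesis, had 0.58 with sh1 and 0.28 with sh2. Plekhn1 had -0.47 and -0.21.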

How the data were processed

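RNA of 3 control, 2 sh1 and 2 sh2 cultures of HM-1 cells was hybridised to Affymetrix Mouse Transcriptome Array 1.0. The values the authors deposited are log2 signals, 1 column per array, made by a service laboratory in 2 Affymetrix programs, the Expression Console and the Transcriptome Analysis Console. The sources used here do not give software versions, background correction or probe summary. No further normalization was applied, and 6918 entries that are not transcript clusters were left out of the tests. Genes were named from clusters with exactly 1 symbol in the platform annotation, and the cluster with the highest mean over the 7 arrays stands for a gene.

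The contrast of sh1 minus control was fitted to all 7 arrays in 3 groups by lmFit and eBayes of limma 3.58.1 (R 4.3.3), with Benjamini-Hochberg adjustment over 65770 clusters. A call has an adjusted p under 0.05, with or without a change of more than 2-fold. The replicate numbers were not used to pair the samples. Deviations from the group means correlated at -0.19 between control replicate 1 and sh1 replicate 1 and at -0.28 between both replicates 2. The values were -0.20 and -0.42 between control and sh2, and 0.22 between sh1 and sh2 replicate 1. With 2 arrays per hairpin, whose deviations mirror each other, these values cannot tell whether arrays of the same number share a batch. Precision is limited by the number of arrays. In simulated data of 65770 clusters with 200 changed, 93% of changes of 1.5 and 97% of changes of 3 on the log2 scale were recovered for sh1 against control, with 10 false calls. The simulation drew independent normal noise for each array and changed only clusters above the median signal. It checks that the fit runs correctly and cannot give the share of changes recovered in the real arrays.

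The comparison and the gene lists were chosen with earlier results of these data known. Named genes are Snai1, Snai2 and Snai3, the 15 lower and 15 higher genes past the test with the largest changes, all measured CXCR2 ligands, NF-κB subunits, kinases and feedback inhibitors, members past the test of every other list (or, with none, the leading 3), and the 5 genes past the test with the smallest p between sh2 and sh1. Of 13 mitochondrially encoded genes, 0 had a single-symbol cluster. Promoters were taken from a RefSeq table of GRCm38.p6. Alternatives were a fit of the control and sh1 arrays only, a replicate block, a filter on dim clusters, single-symbol clusters only, quantile normalization, median centring, a trend with robust moderation, array weights, a negative control covariate and the omission of each array. A further alternative was an analysis of variance of the control and sh1 arrays only, without the sh2 arrays that the study's analysis included.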

Additional observations from a re-analysis of the deposited data

Results flagged for a closer look

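The negative control entries, which enter no comparison of genes, were brighter on both sh1 arrays (medians 4.92 and 4.99) than on all 3 control arrays (4.83, 4.85 and 4.86), with a median difference of 0.10 on the log2 scale. Of the 5222 entries, limma called 1 lower and 0 higher, and before adjustment 104 were lower and 233 higher at a p under 0.05. No group of arrays was large enough for the test of a single array that stands apart.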

How the results depend on the processing

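None of the 46 named genes past the test changed sign in any of the 16 alternative limma fits, but calls changed. Among named genes that did not pass, 27 values of 18 genes changed sign, with no value beyond 0.25 on either side. Of 2214 values of named genes under the alternatives, 1778 kept their side of the threshold, 382 lost it and 54 gained it. Among the 46 named genes past the test, 46 also passed with the filter on dim clusters, with single-symbol clusters and with array weights, 45 with quantile normalization or median centring, 37 with the trend and robust moderation, 12 with the control and sh1 arrays only and 0 with the negative control covariate.

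The counts lower and higher by more than 2-fold, 32 and 10, became 15 and 6 with the control and sh1 arrays only, 66 and 20 with clusters whose mean is above the 40th percentile, 49 and 16 with single-symbol clusters, 86 and 20 with quantile normalization, 78 and 22 with median centring, 59 and 18 with array weights and 0 and 0 with the negative control covariate. Last, they became 1 and 0 in an analysis of variance after Benjamini-Hochberg adjustment (30 and 12 at an unadjusted p under 0.0005). It used the control and sh1 arrays only, without the sh2 arrays that the study's analysis included. Without the fold minimum, the counts of 54 and 34 became 22 and 17, 152 and 91, 130 and 76, 214 and 86, 164 and 72, 131 and 93, 0 and 0, and 9 and 5 in the same order. Fewer clusters were tested with the filter and with single-symbol clusters, and the cause of the other moves was not tested.

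In the fit with a replicate block, 1 cluster was lower and 0 were higher, with and without the fold minimum, and 1 of the 46 named genes passed. Whether arrays of the same number share a batch could not be told from these arrays. Leaving out 1 array in turn left 1 to 26 clusters lower and 0 to 7 higher by more than 2-fold, 1 to 204 lower and 0 to 335 higher without the minimum, and 0 to 2078 between sh2 and sh1. A lone array left in a group is assumed to vary like the other groups. Of the clusters called without sh1 replicate 1 and sh1 replicate 2, 175 and 290 had a residual standard deviation under 0.01.

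The fit has 4.74 degrees of freedom after moderation. Only 10685 clusters (16.2%) had both means above background (7.97), so changes of most clusters were measured at or near background.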
